A study of Mus musculus with 47 samples.

Results

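Expression of 10 cell adhesion genes was followed across every group of a C2C12 muscle differentiation series: the classical cadherins Cdh2, Cdh4, Cdh6, Cdh11 and Cdh15, the atypical cadherins Cdh13 and Cdh23, and the catenins Ctnna1, Ctnnb1 and Ctnnd1. They were taken by gene symbol from the 45706 genes of the deposited tables, and the estimated counts of all transcripts of a gene were summed. All 10 had a count above 0 in at least 1 of the 47 libraries, but between 7 and 9 of them passed the low-count filter in any single comparison, so counts of called genes below refer to the members tested.

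Classical cadherins are single-pass membrane proteins that bind calcium and pair with cadherins of the neighbouring cell. Their cytoplasmic tails hold beta-catenin and p120-catenin, and alpha-catenin links beta-catenin to actin. In muscle, N-cadherin and M-cadherin sit at contacts between myoblasts that align before fusion, whereas Cdh13 has no cytoplasmic tail and Cdh23 is a very long cadherin best known from the tip links of inner ear hair cells.

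C2C12 is a mouse skeletal myoblast line that fuses into multinucleated myotubes when serum is withdrawn. The cells carried doxycycline (dox) inducible transgenes integrated with PiggyBac: iMyoD1 (endogenous MyoD1 plus dox-inducible Halo-MyoD1), iCdh23 (inducible Cdh23) and iMcam (inducible Mcam, an immunoglobulin-type adhesion receptor). iMyoD1 was sampled in growth medium (0 h, with 24 h of dox or vehicle) and after 24, 48 and 120 h of serum starvation with dox or vehicle from its start. At 120 h it was taken as whole culture and as a fraction that passed a 40 µm strainer (myoblast-enriched) or stayed on it (myotube-enriched). iCdh23 and iMcam were sampled at 48 h. This gave 16 groups, 15 with 3 replicates and 1, the dox-treated myoblast-enriched fraction, with 2. The iMyoD1 population was polyclonal and, by the study's own account, only a minority of its nuclei were induced. No untransfected line with dox was among the libraries, so effects of dox itself and of the transgene cannot be told apart.

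Cdh23 is both the transgene of 1 line and an endogenous gene that responded in the others, and its start region is shown for that reason. The gene (ENSMUSG00000012819) lies on the minus strand of chromosome 10, GRCm38 positions 60302748 to 60696490, and has 16 annotated transcripts. The line below gives the 250 bases before its RefSeq start, chr10:60696491-60696740, minus strand, 5′ to 3′ (RefSeq, GRCm38.p6). Capitals mark the 1 match to CANNTG, the E-box letters that MyoD1 and its relatives bind.
Cdh23 upstream: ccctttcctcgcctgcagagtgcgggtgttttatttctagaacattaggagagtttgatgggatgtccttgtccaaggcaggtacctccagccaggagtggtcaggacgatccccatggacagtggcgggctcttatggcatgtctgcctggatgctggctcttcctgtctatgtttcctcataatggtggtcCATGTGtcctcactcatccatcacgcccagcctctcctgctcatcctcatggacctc
The capitals begin 57 bases before the start. CANNTG, read on both strands, was present in 66.2% of 32851 such windows of RefSeq genes, and its variant CAGCTG, absent from this window, in 13% of them. RefSeq windows were matched for 5 of the 10 members. CANNTG occurred 3 times in that of Cdh15, 1 time in that of Cdh6, in 1 of 2 windows of Ctnnd1 and in neither window of Ctnnb1. A match is a description of the letters and was not tested as a binding site.

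Library totals ran from 15066362 to 50950707 estimated counts, with a median of 22837955, and 3 counts, the floor used here, corresponded to 0.0605 to 0.201 CPM (counts scaled by the library's total). Replicates are separate biological replicates by label. The summed level of 10 myotube markers was 17170 to 27467 CPM in the untreated myotube-enriched libraries and 7517 to 11699 CPM in the untreated myoblast-enriched ones. With dox it was 6464 to 26896 and 6204 to 6511 CPM. The 3 myoblast markers did not follow the fraction labels: Myod1, Myf5 and Des summed to 2040 to 2824 CPM in the untreated myotube-enriched and 1181 to 1629 CPM in the untreated myoblast-enriched libraries, and to 1196 to 3083 and 1268 to 1282 CPM with dox. Des, which myotubes also express, led the sum (group means of 2179 and 1004 CPM without dox), whereas the means of Myf5 (17.2 and 31.3 CPM) and Myod1 (287 and 320 CPM) were lower in the myotube-enriched group, and none of the 3 was called. Endothelial markers summed to at most 0.929 CPM in any library, haematopoietic ones to at most 4.04 CPM and neural ones, mainly Tubb3, to at most 49.3 CPM, and the defining markers Tie1, Ptprc and Snap25 were at 0 in 40, 40 and 45 of the 47 libraries. 2 libraries went against their labels. Mcam, higher with dox in every other pair of groups, stood at 3.47, 16.2 and 3.08 CPM in the untreated myotube-enriched replicates 1 to 3 and at 12.4, 1.26 and 15.2 CPM in the dox-treated ones, so both libraries numbered 2 lay on the other side. Myog, an early differentiation factor, crossed over in the same 2 libraries. Results that rest on these libraries are therefore given with and without them. Without them the dox-treated myotube-enriched libraries had myotube marker sums of 6464 to 18580 CPM. The transgenes themselves were seen unevenly. Myod1 was 181, 171 and 180 CPM without dox and 197, 178 and 189 CPM with dox at 0 h in iMyoD1, which overlap. At later times it was called lower with dox in whole cultures, at 124, 116 and 111 against 139, 135 and 130 CPM at 24 h (log2 change -0.23, adjusted p = 0.00414), 295, 323 and 300 against 391, 389 and 382 CPM at 48 h (-0.36, adjusted p = 0.000446) and 82.3, 97.9 and 95.8 against 305, 303 and 231 CPM at 120 h (-1.62, adjusted p = 1.32e-05). Myod1 was not called higher with dox in any iMyoD1 comparison, and effects below are those of dox in this line. Whether reads of Halo-MyoD1 enter that count is not known. Mcam in iMcam was 19.8, 17.1 and 17.3 CPM without and 69, 70.2 and 74.7 CPM with dox.

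Levels between genes were compared per transcript length, as TPM recomputed here, that is CPM after division by transcript length. In growth medium without dox, Cdh2 made up 64.6% of the summed mean TPM of the 7 cadherins and Cdh15 23.7%. By 48 h without dox the order had turned, with Cdh15 at 62.9% and Cdh2 at 23.6%. The 0 and 48 h libraries were deposited in separate tables, so time and table cannot be told apart here. Cdh15 stood above Cdh2 in 12 of the 16 groups, with and without both libraries numbered 2. Cdh13 held between 4.66% and 29.4%, the latter in the untreated myotube-enriched fraction (32.2% without its replicate 2), and Cdh11 reached 8.64% in the untreated whole culture at 120 h, its highest share. Cdh23 stayed between 0.292% and 2.41% in iMyoD1, the latter in the dox-treated myotube-enriched fraction (3.03% without its replicate 2), and took 18.3% of the cadherin TPM in uninduced and 61% in induced iCdh23. In iMcam it took 0.743% without and 8.15% with dox.

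**Figure D1:**
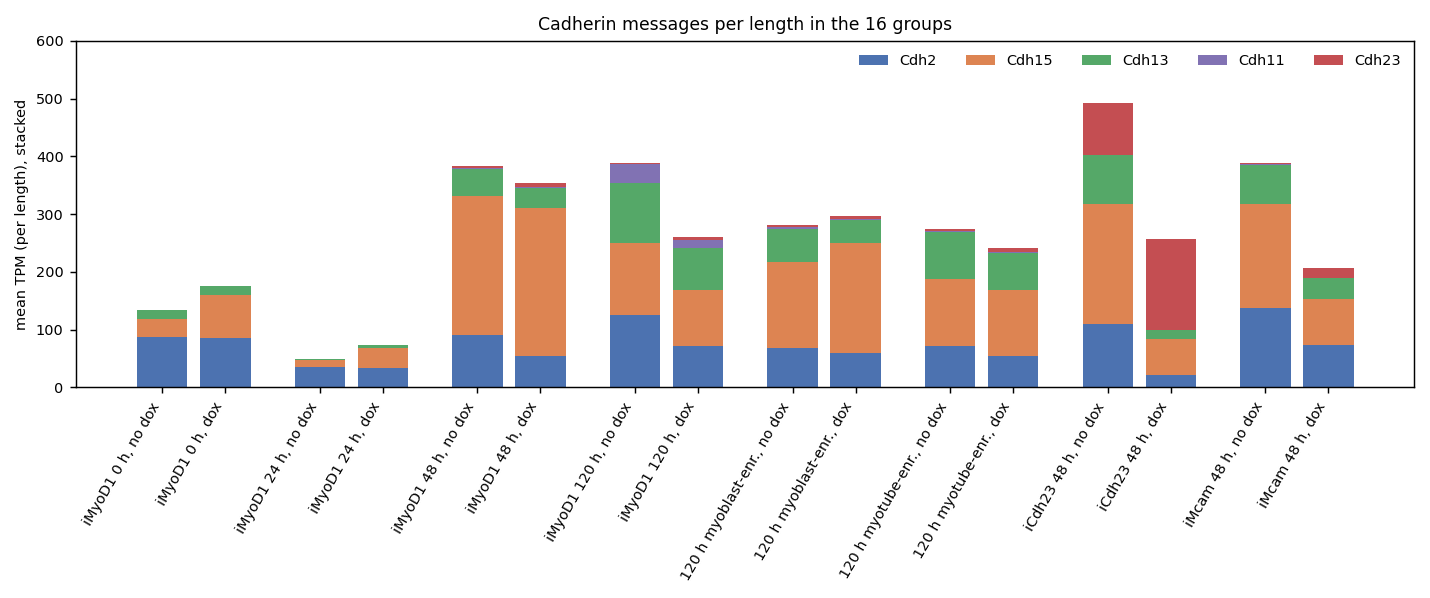
Mean TPM (per length) of 5 cadherins, stacked, in each of the 16 groups of line, time, fraction and dox. Cdh15 (orange) is the tallest segment at 48 h in iMyoD1, Cdh2 (blue) leads in untreated cultures at 0 and 24 h, and Cdh23 (red) is visible as a large segment in iCdh23. Cdh4 and Cdh6 are too low to draw.

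Levels of single members over the groups were compared as CPM scaled by TMM (trimmed mean of M values). Cdh15 was highest at 48 h in iMyoD1, with means of 484 ± 4.99 CPM (SD, n = 3) with dox and 482 ± 18.5 CPM (n = 3) without, which did not differ beyond their spread, and lowest at 24 h without dox (23.9 ± 1.02 CPM). Cdh2, N-cadherin, was highest in untreated iMcam (274 ± 32.1 CPM), next to the untreated 120 h whole culture (262 ± 16.1 CPM), whose libraries overlapped it. Its lowest mean was in induced iCdh23 (33.8 ± 6.78 CPM). Cdh13 ran from 204 CPM in the untreated 120 h culture to 5.51 CPM at 24 h, and Cdh11 from 99.9 CPM to 0 in the same groups. The catenins moved far less: Ctnnb1 ran from 390 to 1058 CPM, Ctnna1 from 467 to 974 CPM, and Ctnnd1 from 143 to 517 CPM.

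**Figure D2:**
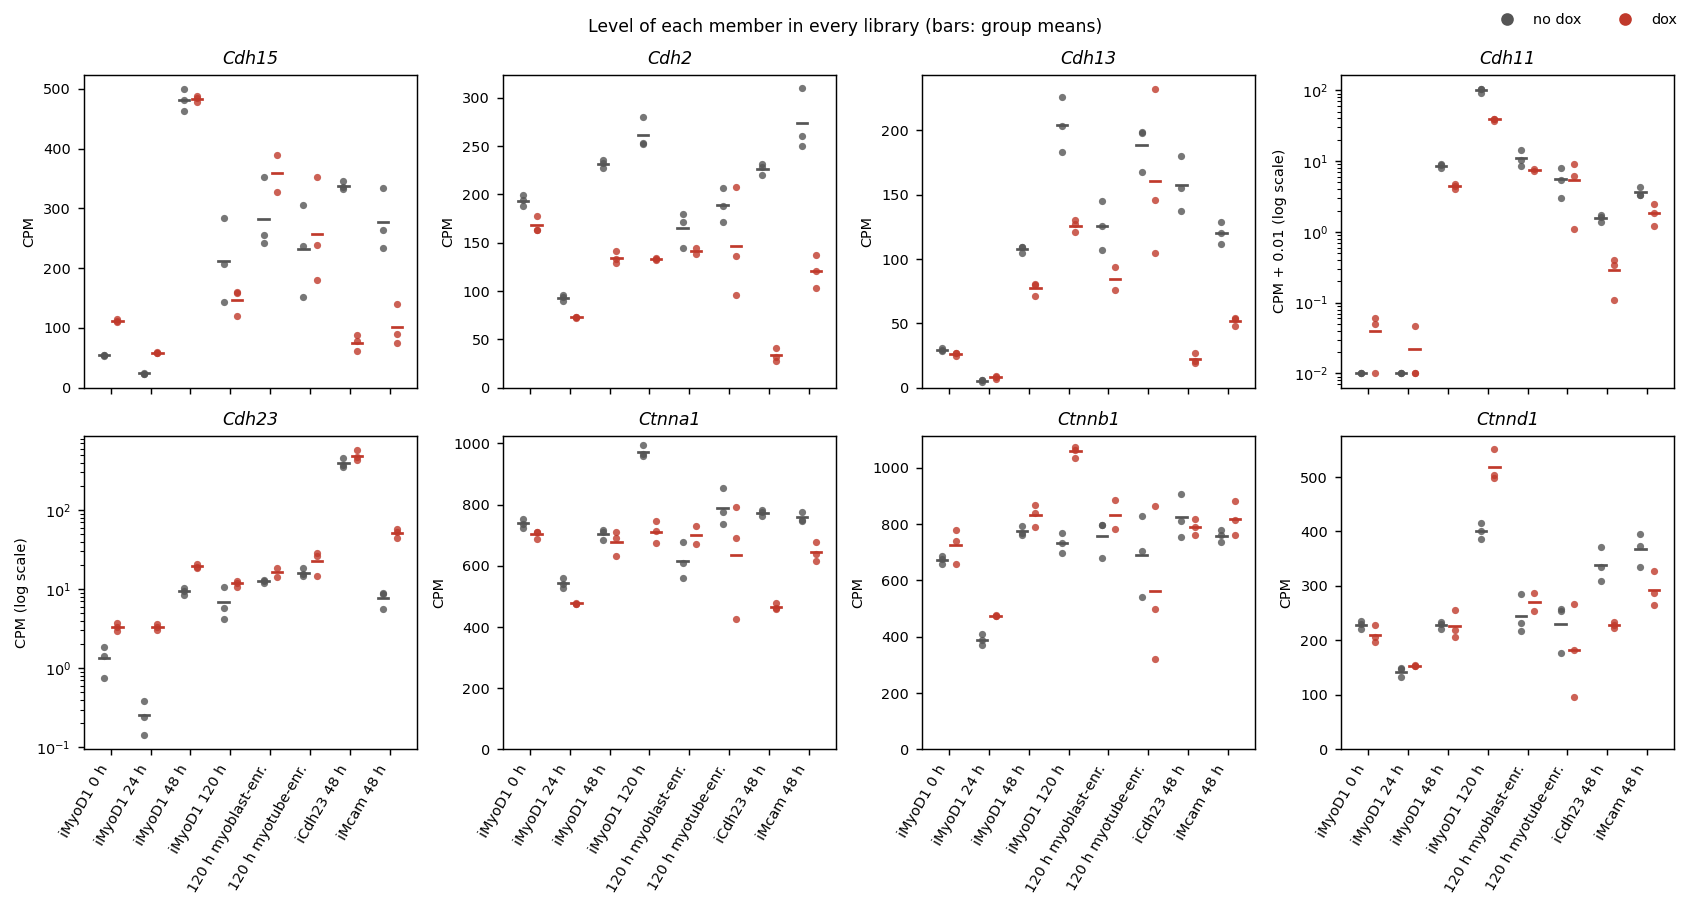
CPM of 8 members in every library (points) with group means (bars), for 8 conditions of line, time and fraction, untreated in grey and dox in red; Cdh11 (with 0.01 added) and Cdh23 are on log axes. Both classical cadherins Cdh2 and Cdh15 and the atypical Cdh13 have their lowest iMyoD1 means at 24 h within each treatment, and Cdh23 in iCdh23 lies above 300 CPM with and without dox.

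Cdh4, R-cadherin (chromosome 2, 179442431 to 179899373, plus strand, 6 transcripts), was never above 4 counts in a library and was at 0 in every iMyoD1 library. It was not tested in any comparison. Cdh6, K-cadherin (chromosome 15, 13028701 to 13173675, minus strand, 1 transcript), stayed at 10 counts or below in all groups but the untreated 120 h whole culture, where its counts were 19, 24 and 24.

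The first question of the series is how the culture changes as it differentiates. In untreated iMyoD1 the members fell together from 0 to 24 h of serum starvation: all 7 of 7 tested were lower at an adjusted p below 0.05 (edgeR quasi-likelihood test, Benjamini-Hochberg over all genes), against 74.3% of all genes called in either direction. They then rose together from 24 to 48 h, with 8 of 8 called higher against 76.8% of genes called. Cdh11 was among the 8 only through its 48 h counts: it had 0 counts at 24 h and could only come out higher. From 48 to 120 h 6 of 9 were called, 5 higher and 1 lower, against 67.1% of genes. Among the 5 higher, Cdh6 passed the low-count filter only through the 120 h group, where it was high. With most genes called at each step, the shares called say little about these genes. Directions among the members were uniform at the first and second step, with Cdh11 bound to be higher at the second. Of all genes, 5040 of 13632 were called lower at the first step and 5383 of 14017 higher at the second. The median log2 change of the tested members was -1.01 from 0 to 24 h and 2.81 from 24 to 48 h. Over all genes it was 0.01 and -0.02. Lists of related genes, described below, also fell at the first step. Their medians were -1.10 (other cadherins), -1.08 (other catenins and junction partners), -0.77 (hair cell partners of Cdh23) and -0.73 (beta-catenin pathway). At the second step they were 0.10, 0.75, 1.95 and 0.55. The 0 and 24 h libraries and the 48 and 120 h libraries were deposited in separate tables, so the step from 24 to 48 h cannot be told apart from a difference between those tables. The marker lists moved over the same steps. The 6 proliferation markers summed to 2429 to 2465 CPM at 0 h and 825 to 859 CPM at 24 h without dox, all 6 called lower, and stood at 1157 to 1199 CPM at 48 h and 273 to 298 CPM at 120 h. The 10 myotube markers summed to 1.73 to 2.35, 13.1 to 14.2, 16300 to 17909 and 20962 to 24260 CPM at the 4 times, and all 10 were called higher from 24 to 48 h. Their part in the cadherin changes was not tested.

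Cdh15, M-cadherin (chromosome 8, 122847966 to 122867397, plus strand, 1 transcript), is a cadherin largely restricted to the skeletal muscle lineage. Untreated libraries gave 53.5, 54.5 and 55 CPM at 0 h, 22.9, 23.7 and 25 CPM at 24 h, and 500, 463 and 481 CPM at 48 h. The groups were far apart at each step, and the rise from 24 to 48 h was 20.2-fold (log2 change 4.34, SE 0.07, adjusted p = 4.64e-15). At 120 h the untreated whole cultures spread over 284, 207 and 144 CPM, all under the 48 h values (log2 change -1.17, SE 0.2, adjusted p = 0.000683). Cdh15 was the only member called lower over that interval without dox.

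Cdh2 (chromosome 18, 16588877 to 16809246, minus strand, 3 transcripts) is expressed in myoblasts and in many mesenchymal cells. Without dox it was 199, 194 and 188 CPM at 0 h and 93.8, 96.3 and 90 CPM at 24 h, a 2.02-fold fall, then 233, 236 and 227 CPM at 48 h. From 48 h to 120 h it was not called (log2 change 0.19, SE 0.08, adjusted p = 0.0573). Without the untreated 120 h replicate 1 the same step was called at an adjusted p of 0.023, with a log2 change of 0.23, and so was a fall of Cdh23 (-0.87, adjusted p = 0.00196, against -0.44 and 0.198 with all libraries). The rise between 24 and 48 h was 2.49-fold (adjusted p = 1.4e-10).

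Cdh11 (chromosome 8, 102632095 to 102785642, minus strand, 1 transcript) marks mesenchymal and osteoblast lineages. It had 0 counts in all 6 untreated libraries at 0 and 24 h. At 48 h the untreated libraries held 135, 168 and 200 counts (8.02, 9 and 8.93 CPM), at least 78.1-fold higher than the 24 h group when that group is set to 3 counts per library. At 120 h they held 90.6, 105 and 104 CPM, a further 11.7-fold (log2 change 3.55, SE 0.11, adjusted p = 1.49e-07). The 120 h fractions, which come from another table, had only 2.99 to 14.4 CPM without dox, so the high level was seen in whole cultures alone. Handling, table and the composition of the culture cannot be told apart here.

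Cdh13, T-cadherin (chromosome 8, 118283733 to 119324921, plus strand, 7 transcripts), is anchored by a lipid tail. It went from 29.5, 28.6 and 31 CPM to 5.89, 5.82 and 4.81 CPM at 24 h, then to 109, 109 and 105 CPM at 48 h and 226, 203 and 183 CPM at 120 h, all without dox and with no overlap between successive times. Its rise from 24 to 48 h was 19.6-fold (adjusted p = 2.87e-14). Cdh6 rose from 3, 8 and 4 counts at 48 h to 19, 24 and 24 at 120 h (adjusted p = 0.00293), at counts close to the floor. It passed the low-count filter only through the 120 h group.

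The catenins followed the same direction with smaller changes. Ctnnb1, beta-catenin, which also carries Wnt signals to the nucleus (chromosome 9, 120929216 to 120960507, plus strand), fell 1.69-fold by 24 h and rose 2-fold by 48 h. Ctnna1, alpha-catenin (chromosome 18, 35118859 to 35254779, plus strand), fell 1.33-fold and rose 1.3-fold. Ctnnd1, p120-catenin, which keeps cadherins at the surface (chromosome 2, 84600071 to 84650765, minus strand), fell 1.56-fold and rose 1.6-fold, then rose a further 1.78-fold to 120 h (adjusted p = 1.79e-05). Ctnna1 also rose from 48 to 120 h, 1.4-fold, whereas Ctnnb1 was not called there (log2 change -0.06, 95% interval -0.25 to 0.12).

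With dox the course was alike in direction. From 0 to 24 h 6 of 7 members were called, all lower, against 68% of genes. From 24 to 48 h 8 of 8 were called higher, against 72.4%. Cdh11, with at most 1 count in a dox library at 24 h, was among the 8 only through its 48 h counts and could only be called higher. The exception at the first step was Cdh23, at 3.72, 2.95 and 3.29 CPM at 0 h and 3.29, 3.63 and 3.03 CPM at 24 h (log2 change -0.01, 95% interval -0.39 to 0.37). From 48 to 120 h 6 of 8 were called, against 73.5% of genes: Cdh11, Cdh13, Ctnnb1 and Ctnnd1 rose, and Cdh15 and Cdh23 fell. Cdh15 fell 3.29-fold, from 478, 485 and 488 CPM to 120, 158 and 160 CPM.

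The second question is how dox, given to induce Halo-MyoD1, changes the culture at each time. In growth medium dox was associated with more Cdh15 and Cdh23 and slightly less Cdh2: 3 of 7 members were called, against 37.8% of genes. At 24 h 6 of 7 were called (62.8% of genes), with Cdh13, Cdh15, Cdh23 and Ctnnb1 higher and Cdh2 and Ctnna1 lower. At 48 h 4 of 8 were called (56.6% of genes), Cdh23 higher and Cdh2, Cdh11 and Cdh13 lower. In the 120 h whole culture 7 of 9 were called (45.2% of genes), with Ctnnb1 and Ctnnd1 higher and Cdh2, Cdh6, Cdh11, Cdh13 and Ctnna1 lower. Cdh6 passed the low-count filter only through the untreated group, where it was high, so its call could only be lower. The median log2 dox effect of the members was -0.06, 0.26, -0.05 and -0.55 at 0, 24, 48 and 120 h, beside a median over all genes between 0 and 0.01. Each of these dox comparisons had its own control libraries.

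**Figure D3:**
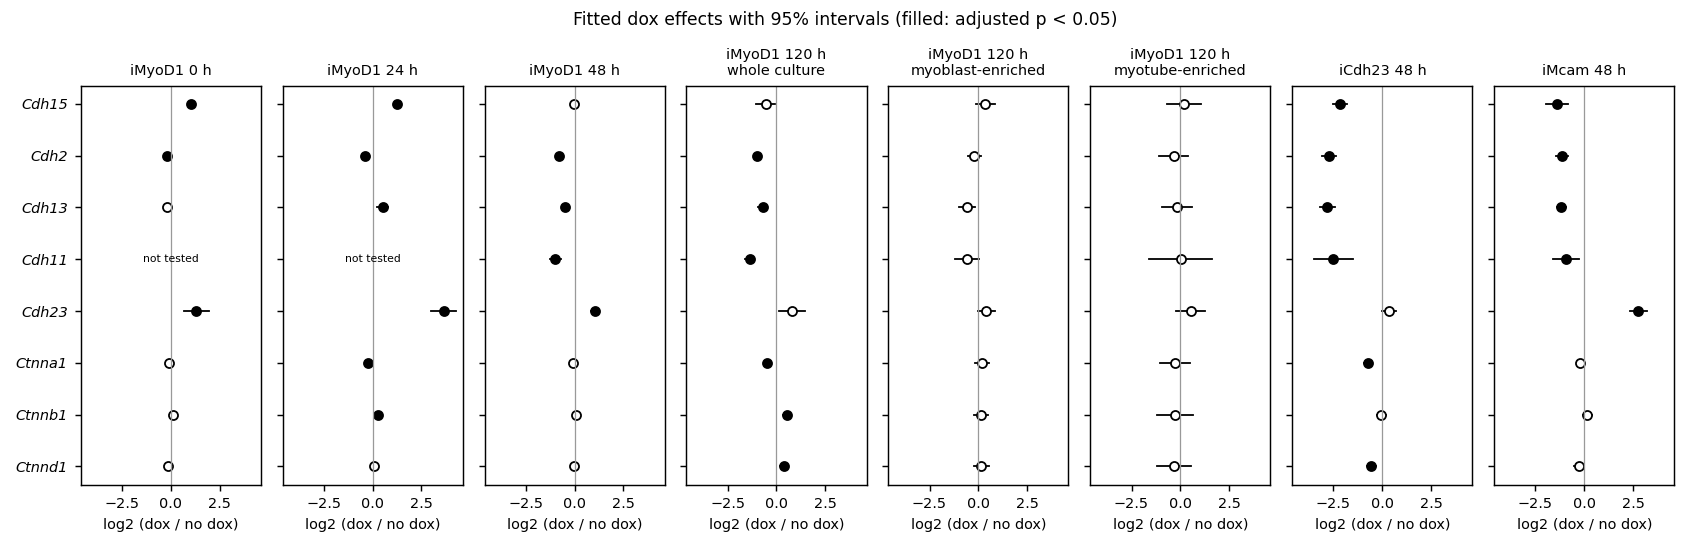
Fitted log2 dox effect (dot) and 95% interval (line) of 8 members in 8 comparisons, filled where the adjusted p was below 0.05 over all genes. Cdh2 lies left of 0 in all 8 panels, filled in the 4 whole-culture iMyoD1 panels and in iCdh23 and iMcam; no dot is filled in the fraction panels. Cdh4 and Cdh6 are not drawn.

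Cdh15 was higher with dox at the early times. At 0 h the dox libraries stood at 110, 115 and 112 CPM against 53.5, 54.5 and 55 CPM without, a 2.08-fold difference (log2 change 1.06, SE 0.05, adjusted p = 8.53e-09). At 24 h they stood at 57.3, 57.4 and 59 CPM against 22.9, 23.7 and 25 CPM, a 2.38-fold difference. At 48 h the groups overlapped, at 478, 485 and 488 CPM with dox and 463 to 500 CPM without (log2 change -0.01, 95% interval -0.15 to 0.13). At 120 h they overlapped again, with a fitted log2 change of -0.55 (SE 0.22, adjusted p = 0.0656). The change was called by DESeq2 (0.0155), and by edgeR with no count filter (0.0102) or with all groups in 1 fit (0.0196). Leaving out the untreated replicate 3, the lowest of its group, gave -0.77 with an adjusted p of 0.00127.

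Cdh2 was lower with dox at each time. Dox libraries held 178, 163 and 163 CPM at 0 h against 188 to 199 CPM without, a log2 change of -0.19 (SE 0.05, adjusted p = 0.0137). That call was lost without dox replicate 2 (adjusted p = 0.0671), without untreated replicate 1 (0.08) and without untreated replicate 2 (0.0573). At 0 h the count of members called rose from 3 to 6 without dox replicate 1, when Cdh13, Ctnnb1 and Ctnnd1 passed at adjusted p values of 0.0348, 0.00272 and 0.00544. At 24 h the dox libraries held 73.6, 73.1 and 72.1 CPM, 1.3-fold under the controls, and at 48 h 142, 133 and 129 CPM, 1.74-fold under them (adjusted p = 1.73e-06). At 120 h they held 133, 134 and 132 CPM against 253, 252 and 280 CPM, 1.99-fold lower (log2 change -0.99, SE 0.08, adjusted p = 1.67e-05). The groups did not overlap at any of the 4 times.

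Cdh11 and Cdh13 were lower with dox at both late times. Cdh11 was 4.79, 4.44 and 4.03 CPM with dox at 48 h against 8.02 to 9 CPM without, 1.97-fold lower. At 120 h it was 39.8, 37.2 and 39.7 CPM against 90.6 to 105 CPM, 2.59-fold lower (log2 change -1.37, SE 0.1, adjusted p = 7.33e-06). Cdh13 was 1.43-fold higher with dox at 24 h, at 8.46, 6.66 and 8.78 CPM against 4.81 to 5.89 CPM. At 48 h it was 1.41-fold lower and at 120 h 1.64-fold lower, with 121, 127 and 130 CPM against 183 to 226 CPM. Cdh6 had 0, 3 and 2 counts with dox at 120 h against 19, 24 and 24 without, and was called lower (adjusted p = 0.0022). It passed the low-count filter only through the untreated group.

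Cdh23 rose with dox at 0, 24 and 48 h. At 0 h the estimated counts were 24, 15 and 37 without and 93, 61 and 66 with dox, a 2.5-fold difference (log2 change 1.32, SE 0.3, adjusted p = 0.00315). At 24 h they were 6, 4 and 11 against 117, 98 and 143, which is 0.142 to 0.381 against 3.03 to 3.63 CPM and 12.5-fold (log2 change 3.64, SE 0.29, adjusted p = 5.1e-07). The untreated counts there lay close to the floor, so this size is uncertain. At 48 h the levels were 8.49, 10.2 and 9.42 CPM without and 21, 19.2 and 18.7 CPM with dox, 2.07-fold. At 120 h the libraries did not overlap, at 10.5, 5.84 and 4.24 CPM against 10.7, 11.9 and 12.8 CPM, but the change was not called (log2 change 0.78, SE 0.29, adjusted p = 0.0562). It was called by DESeq2 (0.0229), and by edgeR with no count filter (0.0241) or with all groups in 1 fit (0.0113). Without the untreated replicate 1, the highest of its group, it was 1.21 with an adjusted p of 0.00131. Its protein-coding transcripts had 0 counts in all 3 untreated libraries at 0 h and 85, 8 and 59 counts with dox. At 24 h they had 0, 0 and 6 counts against 109, 95 and 105. Vsir and Gm17455, which lie within the gene on the other strand, share no exon base with it.

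The catenin dox effects were small until 120 h. Ctnnb1 was 1.2-fold higher at 24 h (474, 473 and 478 CPM against 411, 369 and 390 CPM) and 1.43-fold higher at 120 h (1074, 1063 and 1036 CPM against 698, 767 and 733 CPM, adjusted p = 0.000685). Ctnnd1 at 120 h was 1.28-fold higher, at 552, 503 and 498 CPM against 387, 400 and 415 CPM (adjusted p = 0.00611). Ctnna1 was lower there, at 715, 676 and 745 CPM against 995, 959 and 966 CPM (log2 change -0.46, SE 0.08, adjusted p = 0.00124). At 48 h none of the 3 catenins was called, with log2 changes between -0.07 and 0.09.

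The marker lists moved beside these effects. The proliferation markers summed to 2120 to 2171 CPM with dox against 2429 to 2465 CPM without at 0 h, and to 773 to 794 against 825 to 859 CPM at 24 h. The myotube marker sums were 3.78 to 4.34 against 1.73 to 2.35 CPM at 0 h and overlapped at 24 h. At 48 h the summed myotube markers were 6555 to 6694 CPM with dox against 16300 to 17909 CPM without, and all 10 were called lower. The 6 proliferation markers summed to 416 to 443 CPM against 1157 to 1199 CPM. At 120 h the myotube sums were 15480 to 17567 against 20962 to 24260 CPM, and the proliferation sums 428 to 499 against 273 to 298 CPM. In whole cultures fewer cells of one kind and less RNA per cell cannot be told apart, and the part of these shifts in the cadherin values was not tested.

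Whether the dox effect itself differed between times was tested as a difference of effects. Both such tests over time use the 24 h libraries. Between 24 and 0 h 4 of 7 members differed, against 34.1% of genes called, and between 48 and 24 h 4 of 8 differed, against 43.4%. The Cdh15 effects at 0 and 24 h were not called different (difference 0.15 on the log2 scale, 95% interval -0.01 to 0.3), although DESeq2 (adjusted p = 0.0416) and edgeR with relative log expression scaling (0.042) called them different, and the effect was smaller at 48 h (difference -1.26, SE 0.08, adjusted p = 4.72e-09). Cdh23 gained 2.27 (SE 0.46) from 0 to 24 h and lost 2.58 (log2 difference -2.58, SE 0.27) from 24 to 48 h. For Cdh13 these differences were 0.66 (SE 0.14) and -1.02 (SE 0.13), its log2 dox effects being -0.19 at 0 h, not called, 0.52 at 24 h and -0.49 at 48 h. Cdh2 became lower at both steps, by log2 differences of -0.24 (SE 0.07, adjusted p = 0.0186) and -0.42 (SE 0.07). The first of these was lost without the untreated 0 h replicate 3 (adjusted p = 0.0638), with relative log expression scaling (0.0697) and with no count filter (0.0813). Ctnna1 differed between 0 and 24 h by -0.19 (SE 0.07, adjusted p = 0.0303), a call lost without any one of untreated 0 h replicates 1 and 3, dox 0 h replicate 2 and dox 24 h replicates 1, 2 and 3, with adjusted p values of 0.0519 to 0.0899, and also with relative log expression scaling (0.122) or no count filter (0.213). Without dox 0 h replicate 1 Ctnnd1 was called for the same step (0.04). From 24 to 48 h Ctnnb1 was called by DESeq2 (0.00623), with relative log expression scaling (0.0359), and without untreated 24 h replicate 1 (0.0489) or dox 48 h replicate 1 (0.0298), and Ctnnd1 without the latter (0.0311).

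The third question concerns the lines that induce an adhesion gene directly. Without dox, iCdh23 and iMcam differed in 1 of 8 members at 48 h, against 0.409% of genes called, and that member was the transgene. With replicate number as a block, since these numbers paired the libraries, 2 of 8 members and 607 genes were called in place of 56. Cdh23 was 370, 348 and 451 CPM in uninduced iCdh23 and 5.61, 8.86 and 8.71 CPM in uninduced iMcam, a 50.1-fold difference (log2 change 5.65, SE 0.23, adjusted p = 0.000283). Cdh11 was lower in iCdh23, at 1.37, 1.6 and 1.73 CPM against 3.28, 3.29 and 4.3 CPM, without being called (adjusted p = 0.112). With the block it was called at an adjusted p of 0.0287.

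In iCdh23 dox came with lower levels of the main cadherins. 6 of 8 members were called, all lower, against 63.8% of genes in either direction, and the median log2 change of the 8 was -1.45 beside 0 over all genes. Cdh2 was 41.3, 28 and 32 CPM with dox against 232, 228 and 220 CPM without, 6.72-fold lower (log2 change -2.75, SE 0.16, adjusted p = 1.08e-05). Cdh13 was 19.3, 21 and 26.7 CPM against 137, 155 and 180 CPM, 7.03-fold lower. Cdh15 was 78.1, 60.8 and 87.6 CPM against 336, 345 and 332 CPM, 4.47-fold lower. None of these groups overlapped. Cdh11 fell from 31, 33 and 40 counts to 8, 3 and 11. Ctnna1 was 1.66-fold and Ctnnd1 1.49-fold lower, and Ctnnb1 overlapped, at 762, 817 and 791 CPM against 755, 907 and 811 CPM (log2 change -0.06, 95% interval -0.29 to 0.17).

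The induced gene was not called on its total count. Cdh23 in iCdh23 was 568, 426 and 464 CPM with dox against 370, 348 and 451 CPM without (log2 change 0.32, SE 0.15, adjusted p = 0.102). Without the untreated replicate 3 it was called (log2 change 0.43, adjusted p = 0.0269). The counts were however assigned to different transcripts. Cdh23-209, annotated as a retained intron, took 52.3% to 56.9% of the Cdh23 counts without dox and 17.1% to 28.7% with it, and 0% in all 6 iMcam libraries. The protein-coding transcripts took 27.8%, 37% and 38.5% without and 53.5%, 58.9% and 63.2% with dox. Scaled by total counts alone, that is 102, 124 and 165 CPM against 373, 302 and 360 CPM, which do not overlap. Which transcript models the transgene reads match was not tested, and counts spread over such similar transcripts are uncertain.

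Dox in iMcam gave 5 of 8 members called, against 49% of genes: Cdh23 higher and Cdh2, Cdh11, Cdh13 and Cdh15 lower. Cdh23, here the endogenous gene, was 44, 57.2 and 52.4 CPM with dox against 5.61, 8.86 and 8.71 CPM without, 6.79-fold higher (log2 change 2.76, SE 0.19, adjusted p = 0.00015). Cdh15 was 75.3, 89.1 and 140 CPM against 233, 264 and 334 CPM, 2.66-fold lower. Cdh2 was 137, 103 and 121 CPM against 261, 250 and 310 CPM, 2.21-fold lower, and Cdh13 2.26-fold lower. Cdh11 was 1.9-fold lower with an adjusted p of 0.0312, a call lost without untreated replicate 2 (0.0562), untreated replicate 3 (0.0714), dox replicate 1 (0.0795) or dox replicate 2 (0.0945). Ctnnd1 was not called (adjusted p = 0.0634) but passed without untreated replicate 3 (0.0237) or dox replicate 3 (0.0405). Ctnna1 was not called either (log2 change -0.2, adjusted p = 0.0924), and passed with the replicate block at 0.0428.

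Mcam was also higher with dox in iCdh23, at 45.7 to 54.6 CPM against 4.77 to 7.57 CPM. Myotube markers moved too: their sum was 45.5 to 158 CPM in induced and 6433 to 12181 CPM in uninduced iCdh23, and 602 to 1992 against 4623 to 11870 CPM in iMcam. Proliferation markers summed to 71.5 to 84.8 against 803 to 1031 CPM in iCdh23 and 113 to 169 against 707 to 859 CPM in iMcam. Their part in the cadherin differences was not tested.

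Compared directly with dox in both, iCdh23 and iMcam differed in 6 of 8 members, against 35.5% of genes. Cdh23 was 9.31-fold higher in iCdh23, and Cdh2, Cdh11, Cdh13, Ctnna1 and Ctnnd1 were lower, by 3.64-fold, 6.93-fold, 2.37-fold, 1.41-fold and 1.31-fold. Cdh15 overlapped (log2 change -0.45, 95% interval -0.95 to 0.04). The dox effects differed between the lines for 4 of 8 members, against 10.6% of genes called. Cdh2 and Cdh13 fell further in iCdh23, by log2 differences of -1.58 (SE 0.21, adjusted p = 0.00117) and -1.62 (SE 0.19, adjusted p = 0.000483), and Ctnna1 by -0.51 (SE 0.11). Cdh23 differed by -2.42 (SE 0.26), the fold rise of its total count being larger in iMcam. The uninduced means were 389 CPM in iCdh23 and 7.73 CPM in iMcam. Its protein-coding transcripts, scaled by total counts alone, went from 102, 124 and 165 to 373, 302 and 360 CPM in iCdh23. In iMcam they went from 3.1, 4.62 and 5.13 to 39.6, 52.7 and 47 CPM. Cdh11 (-1.57, adjusted p = 0.0862) and Cdh15 (-0.73, adjusted p = 0.157) passed with the replicate block, at 0.0376 and 0.048.

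The 120 h fractions ask which part of the culture carries an effect. No member was called for dox in either fraction by the filtered, unblocked edgeR fit behind the values here, but calls in the myoblast-enriched fraction depended on the fit. There 0 of 8 were called, against 4.34% of genes (619), with 1 at an unadjusted p under 0.05. DESeq2 called Cdh13 (adjusted p = 0.0443), with 1582 genes in all, and edgeR with no count filter also called Cdh13 (0.0212), with 1981 genes. With replicate number as a block edgeR called Cdh13 and Cdh15 among 4051 genes, and with all groups in 1 fit 1 gene, no member. In the myotube-enriched fraction 0 of 8 were called, against 0% of genes, with 0 at an unadjusted p under 0.05 and 0 by DESeq2. Cdh13 was nearest, at 75.7 and 93.5 CPM with dox and 126, 107 and 145 CPM without in the myoblast-enriched fraction (log2 change -0.57, 95% interval -0.97 to -0.16, adjusted p = 0.111). It passed without the untreated myoblast-enriched replicate 2 (-0.67, adjusted p = 0.0442). Cdh2 there was 138 and 145 CPM against 180, 145 and 172 CPM (log2 change -0.22, 95% interval -0.56 to 0.11).

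In the myotube-enriched fraction Cdh2 was 96.1, 208 and 136 CPM with dox and 207, 172 and 188 CPM without. Its log2 change was -0.35 (SE 0.32) with all libraries and -0.74 (SE 0.35, adjusted p = 0.586) without both libraries numbered 2. Cdh11 went from 0.01 (SE 0.71) to -0.56 (SE 0.87), Cdh13 from -0.2 to -0.61, Cdh15 from 0.18 to 0.65 and Cdh23 from 0.53 to 0.74 when both were left out. The catenins went from -0.29 to -0.48 (Ctnna1), -0.29 to -0.05 (Ctnnb1) and -0.33 to -0.24 (Ctnnd1). None was called either way. With all libraries, the 95% interval of each of the 8 members held the whole-culture value of that member. Without both libraries 7 of 8 did, the exception being Cdh15 (-0.37 to 1.66, against -0.55 in the whole culture). The intervals were wide, with all libraries -1.08 to 0.39 for Cdh2 and -1.61 to 1.63 for Cdh11. The whole-culture values were taken without their own error. Holding such a value therefore cannot show that the fraction and the whole culture had the same effect.

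Between the fractions, 0 of 8 members were called without dox (0.592% of genes, 83, and 0 of 8 members and 676 genes with the replicate block) and 0 of 8 with dox (0% of genes). The unadjusted p was under 0.05 for 2 and 0 members, and DESeq2 called 1 and 0. Cdh13 without dox was 198, 168 and 199 CPM in the myotube-enriched and 126, 107 and 145 CPM in the myoblast-enriched libraries, which do not overlap (log2 change 0.6, SE 0.16, adjusted p = 0.141). Cdh11 was lower in the myotube-enriched libraries, at 8.05, 5.42 and 2.99 CPM against 10.5, 14.4 and 8.39 CPM (log2 change -1, SE 0.37). Without the untreated myotube-enriched replicate 2 these changes were 0.67 (SE 0.17, adjusted p = 0.145) and -1 (SE 0.43). With dox the changes were 0.96 for Cdh13 and -0.42 for Cdh11, and without the dox-treated myotube-enriched replicate 2 they were 0.59 and -1, none of them called. For the difference of the dox effects between the fractions, edgeR called 0 of 8 members (0% of genes), with 0 at an unadjusted p under 0.05 and 0 by DESeq2, and none was called without both libraries numbered 2.

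The transcripts behind the gene totals set the 120 h whole cultures apart. Ctnnb1-214, the shorter coding transcript (2702 bases), took 87.3% to 96% of the Ctnnb1 counts in these 6 libraries, while Ctnnb1-201 (3623 bases) took 43.1% to 98.3% in every whole culture of the other times and lines. Cdh2-202 (3785 bases) took 72.1% to 82.1% there and 43.8% to 59.1% in the other whole cultures, against Cdh2-201 of 4843 bases. Within the 120 h whole cultures the shares with and without dox overlapped for both genes. Ctnnb1 shares 759 exon bases with Ulk4 on the opposite strand, which had at most 406 counts, and Ctnnd1 shares 4482 with Gm28635 on its own strand, which had at most 45. Reads of such overlaps cannot be told apart with certainty.

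**Figure D4:**
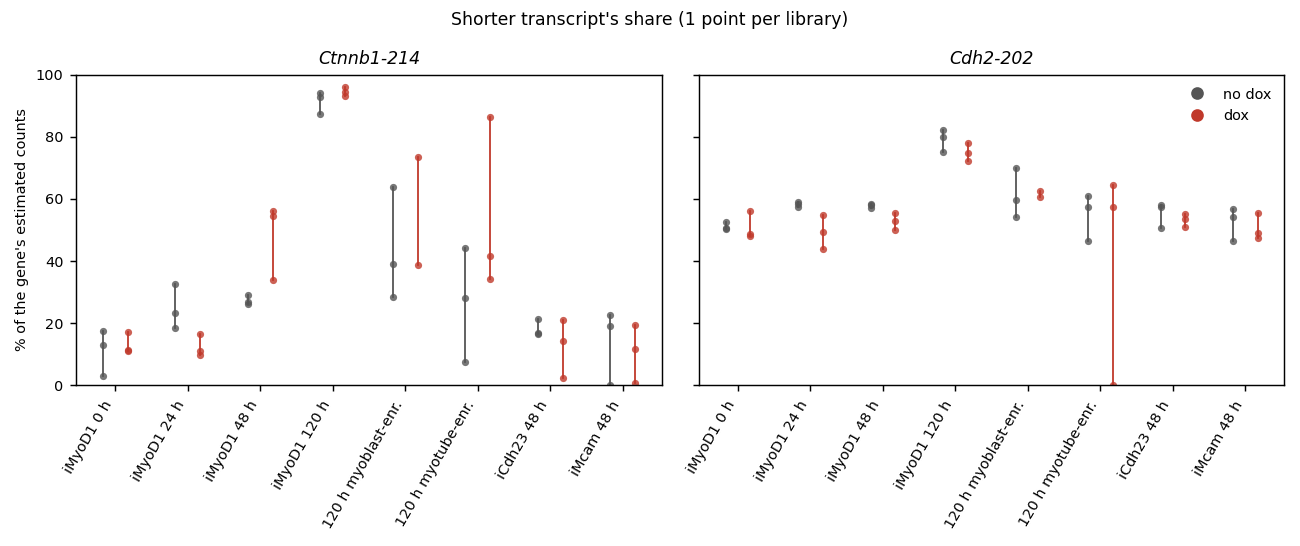
Share (%) of the gene's estimated counts given to Ctnnb1-214 and Cdh2-202 in each library (points, joined within a group), untreated in grey and dox in red. The 120 h whole cultures lie above 87% and 72%, and the 120 h fractions spread widely, including 1 myotube-enriched library with dox at 0% for Cdh2-202.

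The wider family was counted from lists of related genes. Of 16 other cadherins, between 2 and 5 were tested in each dox comparison. Cdh24, a type II cadherin, was called higher with dox in 7 of the 8 dox comparisons, by log2 changes from 0.31 in growth medium to 2.99 in iCdh23 (8.09 to 64.3 CPM). Cdh18 was called lower in 6 of the 8, by -0.55 at 24 h to -2.96 in iCdh23 (13.6 to 1.74 CPM). Cdh1, E-cadherin, was low throughout and was called lower with dox at 48 h (-1.49) and 120 h (-2.81). The other cadherins were mostly too low to test.

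Among 19 other catenins and junction partners, 16 were tested at 24 h, with 11 called higher and 1 lower with dox and a median log2 change of 0.37 beside 0 over all genes, of which 62.8% were called. At 0 h 4 of 16 were higher and 1 lower (37.8% of genes called), at 48 h 4 of 16 higher and 6 lower (56.6%), and at 120 h 5 of 15 higher and 4 lower (45.2%). In iCdh23 6 of 16 were higher and 7 lower (63.8%), and in iMcam 4 of 15 higher and 5 lower (49.0%). Most of these shares were near those of all genes, so the counts alone say little about the list. Arvcf, a p120-catenin relative, was called higher in iMyoD1 whole cultures at all 4 times and in both other lines, with log2 changes of 0.29 to 1.35. Ctnnbip1, an inhibitor of beta-catenin, was called higher in 5 of those 6. The desmosomal plakophilin Pkp1 was lower at 48 and 120 h and in both lines, by -1.25 to -1.76, and Jup, plakoglobin, by -0.86 to -1.38. Plekha7, a p120-binding junction protein, was higher with dox at 24 h (2.17) and lower at 48 h (-1.89) and 120 h (-2.91). The difference between its effects at 48 and 24 h was -4.07 on the log2 scale (SE 0.25, adjusted p = 4.98e-09).

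Of 8 hair cell partners of Cdh23, 5 or 6 were tested. Of these, 4 of 5 were called higher with dox at 0 h (37.8% of all genes called in either direction, median log2 change 0.97). At 24 h 4 were higher and 1 lower (62.8%, median 2.18). At 48 h 5 of 5 were higher (56.6%, median 1.01), and at 120 h 3 were higher and 1 lower (45.2%, median 0.84). In iCdh23 6 of 6 (63.8%, median 2.38) and in iMcam 3 of 5 (49.0%, median 1.11) were higher. In the myoblast-enriched fraction 1 of 5 was higher (4.34%, median 0.74), and in the myotube-enriched fraction 0 of 5 (0%, median 0.24). Cib2 is a calcium-binding partner of the hair cell complex and Myo7a a motor myosin. In iCdh23 Cib2 went from 13.6 to 77.8 CPM (log2 change 2.52) and Myo7a from 0.82 to 19.2 CPM (4.55). At 24 h in iMyoD1 Cib2 went from 5.36 to 24.7 CPM (2.18). Whrn, a scaffold protein, was called lower at 24 h (-0.3) and at 120 h (-0.7), but higher at 0 h (0.75), at 48 h (0.37) and in iCdh23 (0.55).

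In a list of 17 beta-catenin pathway genes, 14 were tested at 48 h, with 6 called higher and 3 lower (56.6% of all genes called) and a median log2 change of 0.37. At 0 h 4 of 14 were higher and 2 lower (37.8%, median -0.07), at 24 h 4 of 12 higher and 4 lower (62.8%, median 0.06), and at 120 h 4 of 13 higher and 4 lower (45.2%, median -0.12). In iCdh23 9 of 15 were higher and 2 lower (63.8%, median 0.42), and in iMcam 5 of 14 higher and 2 lower (49.0%, median 0.17). Lef1, a nuclear partner of beta-catenin, was called lower with dox at 24, 48 and 120 h and in both other lines, by -1.92 to -2.58. Axin2, a Wnt target, was higher in iCdh23 (2.19 to 9.6 CPM, log2 change 2.12) and in iMcam (1.2). Csnk1a1, a kinase of the destruction complex, was lower in all 6 whole-culture comparisons, by -0.18 to -1.24.

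Patterns over the groups were set beside those of the 10886 genes averaging 5 CPM or more, as Pearson correlations of group means of log2(CPM + 1). The points share libraries and depth, and the values are descriptions. Cdh15 was closest to Fgfr4 (0.961), Dok7 (0.956) and Cdkn1c (0.952) over 16 groups. Cdh13 was closest to Bgn (0.976) and Sspn (0.971), Cdh2 to Col1a2 (0.93) and Col12a1 (0.928), and Cdh11 to Igf2r (0.947) and Msi2 (0.945). Cdh23, over the 14 groups outside iCdh23, was closest to 1600020E01Rik (0.966), Cacfd1 (0.963) and Igf2bp2 (0.958). Among the members, Cdh13 and Cdh15 correlated at 0.84 and Cdh2 and Ctnna1 at 0.88, and Cdh2 and Cdh23 at 0.122 over those 14 groups. Leaving out both libraries numbered 2 moved these and the other correlations computed between the cadherins and the other members or their likest genes by at most 0.074. Cdh15 and Cdh23 kept the genes named, while Dpysl3 (0.929) became the closest to Cdh2, and Zfp36l1 (0.971) came before Sspn (0.956) for Cdh13.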

How the data were processed

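RNA of C2C12 lines was sequenced as poly(A) libraries, and the authors deposited 3 tables of Salmon estimated counts per transcript (expected counts, made with the nf-core/rnaseq pipeline; mm10 per the labels; the Salmon version and annotation are not given in the sources used here). Between 30.97% and 34.36% of the deposited values were not whole. Salmon divides reads among similar transcripts, so gene totals are firmer than transcript shares. Transcripts were summed per gene and rounded. Symbols, lengths and coordinates came from GENCODE release M21 (GRCm38), to which 98.72% of transcripts matched; at most 0.552% of a library's counts had no match.

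Groups were tested with edgeR 4.0.16 (R 4.3.3): filterByExpr, TMM scaling, quasi-likelihood F-test, Benjamini-Hochberg over all genes tested, and a gene was called at an adjusted p below 0.05. There were 18 comparisons of a pair of groups and 4 differences of effects. CPM use TMM factors over all 47 libraries, and TPM were recomputed. DESeq2 1.42.0, relative log expression scaling, no count filter, all groups in 1 fit, a replicate block and leaving out each library were the alternatives. Leaving out both myotube-enriched libraries numbered 2 was added after seeing the data. Python 3.11.15, numpy 2.4.6 and pandas 2.3.3 were used. Scripts were tested on simulated counts.

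The members and gene lists were chosen with earlier results of these data known. From each list up to 3 called genes per direction were named. Same-numbered libraries were checked for shared deviations: correlations were above 0.1 in each of 3 pairs between uninduced iCdh23 and iMcam (0.143 to 0.607), between the untreated fractions (0.209 to 0.542), and for dox in iCdh23 (0.14 to 0.279) and iMcam (0.412 to 0.52), all of which were taken as paired. The main fits had no block, and the blocked value is given beside a result where it changed a call or clearly moved a count of calls. For dox in the myoblast-enriched fraction both pairs were above 0.1 (0.409 to 0.569), but 2 pairs were too few to take them as paired. No replicate pair was a duplicate (chi-square per gene at least 2.95). The 95% intervals come from the fit and include the spread between replicates, while the floor of 3 counts covers counting error only.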

Additional observations from a re-analysis of the deposited data

Results flagged for a closer look

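The dox effect differed between times or lines for 12 pairs of member and contrast (edgeR quasi-likelihood test of the difference, adjusted p below 0.05). From 0 to 24 h the differences on the log2 scale were -0.24 for Cdh2, 0.66 for Cdh13, 2.27 for Cdh23 and -0.19 for Ctnna1. From 24 to 48 h they were -0.42 for Cdh2, -1.02 for Cdh13, -1.26 for Cdh15 and -2.58 for Cdh23. For iCdh23 minus iMcam they were -1.58 for Cdh2, -1.62 for Cdh13, -2.42 for Cdh23 and -0.51 for Ctnna1. The Cdh23 value compares fold changes of total counts, with uninduced means of 389 CPM in iCdh23 and 7.73 CPM in iMcam. The 24 h libraries enter both differences over time, and the 24 and 48 h libraries were deposited in separate tables.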

How the results depend on the processing

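No called value changed sign under any alternative run; 40 changes of sign were among values that were called neither way. Of 173 values, DESeq2 left 163 on their side of the threshold and moved 10 past it, relative log expression scaling 169, with 2 gained and 2 lost, all groups in 1 fit 165, with 3 gained and 5 lost, and no count filter 167, with 4 gained and 2 lost. Cdh6, not tested at 48 h in the report, was called lower with dox there by DESeq2 (0.00211), at counts of 3, 8 and 4 against 0, 0 and 0. Leaving out 1 library kept 1171, with 15 gained and 14 lost. For dox in the myoblast-enriched fraction 1 member was called by DESeq2, 1 with no filter and 2 with the replicate block (Cdh13 at 0.00618 and Cdh15 at 0.0115), where numbers pair only 2 libraries. For the fractions without dox DESeq2 called 1 (Cdh13, 0.0366), for the uninduced lines DESeq2 and the block each called 2, and for 24 minus 0 h 2 were left with no filter. Members called with a library left out ran from 2 to 6 for dox at 0 h, 7 to 8 at 120 h, 0 to 1 in the myoblast-enriched fraction, 6 to 7 in iCdh23, 4 to 6 in iMcam, 6 to 8 from 48 to 120 h without dox, 2 to 5 for 24 minus 0 h and 4 to 6 for 48 minus 24 h.

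The replicate block gained 8 calls and lost 0 of the 173. Besides those above and in the report, where numbers only name libraries, it called Cdh13 for dox at 0 h (0.0476) and Cdh15 between the induced lines (0.0195). It changed no other call. With all groups in 1 fit, Ctnnd1 lost its call for dox in iCdh23 (0.0608), Cdh11 for dox in iMcam (0.198), Ctnna1 (0.0756) and Ctnnd1 (0.416) between the induced lines, and Ctnna1 for iCdh23 minus iMcam (0.404). Cdh15 and Cdh23 were called for dox at 120 h by DESeq2 (0.0155 and 0.0229). The cause was not tested.

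Counts over all genes moved by more than 1.5 times in 6 comparisons with calls. Dox in the myoblast-enriched fraction gave 619 genes, 1582 by DESeq2, 1981 with no filter, 1 with all groups in 1 fit and 4051 with the block. Dox in iMcam gave 6723, and 4121 with all groups. The fractions without dox gave 83, 766 by DESeq2, 461 with no filter, 233 with all groups and 676 with the block. The uninduced lines gave 56, 304 by DESeq2, 137 with no filter and 607 with the block. The induced lines gave 4957, and 1485 with all groups. iCdh23 minus iMcam gave 1548, and 373 with all groups. Cdh4, Cdh6 and, before 48 h, Cdh11 lay near the floor of 3 counts, which limits what can be said of them. Cdh23 in the untreated 24 h libraries, at 4 to 11 counts, was also close to it. Its dox effect at 24 h and its flagged differences of 2.27 and -2.58 over time rest on that group, so their sizes are uncertain.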
